A study of Mus musculus with 8 samples.

Results

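The cells described here are the B lineage cells of mouse bone marrow that carried RNA of the pro-B and pre-B stages, in 4 libraries of single-cell RNA sequencing. They were chosen by measured values: a cell with at least 500 genes, at least 1000 unique molecular identifiers (UMIs, the counts of single RNA molecules) and under 10% mitochondrial UMIs was a pass cell, and a pass cell was taken if it held at least 3 of the 7 transcripts Vpreb1, Vpreb3, Igll1, Ebf1, Pax5, Cd79a and Cd79b, fewer than 5 UMIs of the plasma cell gene Jchain and none of the T cell gene Cd3e. This gave 1046 members among 22078 pass cells and 34200 barcodes. The library of wild type marrow with unmutated JAK2 held 953 of them, and the stages below are described there. The levels of the 7 genes are what chose the cells and are given as a description only.

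Each library was 1 pool of bone marrow from 3 mice per condition, so n = 1 per group, no difference between libraries has a replicate check, and no p-value is given. Donor marrow came from wild type or Gli1 knockout (Gli1-/-) mice aged 8 weeks, and was transduced with a retrovirus carrying JAK2V617F, an active mutant kinase, or the unmutated JAK2WT. The recipients were female B6.SJL mice of 8 to 10 weeks, irradiated with 10.5 Gy and killed on day 112 after transplantation, so all 4 groups are irradiated chimeras that may hold recipient cells beside donor cells. The groups are WT_JAK2WT, WT_JAK2V617F, Gli1KO_JAK2WT and Gli1KO_JAK2V617F, always in that order. Per the labels' protocols, cells that bind antibodies to B220, CD3, CD11b, GR1 or TER119 were removed with magnetic beads and again by sorting for lineage-negative cells. B220 is the form of the CD45 protein on most B lineage cells, so the members are cells that passed a depletion aimed at them, and their shares are not the shares of B cells in marrow.

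B cells are made in the marrow in ordered steps. Pro-B cells join the segments of the heavy chain gene with the RAG1 and RAG2 recombinase, and terminal transferase, the product of Dntt, adds bases at the joints. A heavy chain that pairs with the surrogate light chain, made of the proteins of Vpreb1 or Vpreb2 and Igll1, forms the pre-B cell receptor, which drives divisions of large pre-B cells. The cells then stop dividing, turn the recombinase on again as small pre-B cells, join a kappa or lambda light chain gene and become immature B cells with a complete receptor.

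The surrogate light chain genes differed widely between the stages, so the stretch just before their start sites is shown, beside that of Cd79a, which encodes the signalling chain of the receptor at every stage. Igll1 (ENSMUSG00000075370) lies on the minus strand of chromosome 16 at 16860671 to 16863985, and Vpreb1 (ENSMUSG00000059305) on the same strand at 16868403 to 16870843 (GRCm38, the mm10 assembly). Cd79a (ENSMUSG00000003379) lies on the plus strand of chromosome 7 at 24897381 to 24902197. The sequences are RefSeq's for GRCm38.p6, at chr16:16869256-16869505 (minus strand), chr16:16863986-16864235 (minus strand) and chr7:24897247-24897380 (plus strand). For Cd79a the last of the 250 bases searched lie in the first exon of the GENCODE M21 transcript and are not shown. The Vpreb1 window holds an exon of a noncoding GENCODE transcript of that gene. Capitals mark a match to CCCNNGGG, the core of the motif of EBF1, a transcription factor that sets up the B lineage.
Vpreb1: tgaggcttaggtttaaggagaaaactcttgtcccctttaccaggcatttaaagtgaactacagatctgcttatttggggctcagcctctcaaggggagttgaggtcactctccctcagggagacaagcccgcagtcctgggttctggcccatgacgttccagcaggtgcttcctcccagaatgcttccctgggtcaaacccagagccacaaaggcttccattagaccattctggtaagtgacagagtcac
Igll1: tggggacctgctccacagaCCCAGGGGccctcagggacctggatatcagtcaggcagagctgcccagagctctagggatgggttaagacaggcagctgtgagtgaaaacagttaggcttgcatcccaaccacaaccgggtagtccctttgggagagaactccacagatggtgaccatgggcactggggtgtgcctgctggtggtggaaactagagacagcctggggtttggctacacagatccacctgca
Cd79a: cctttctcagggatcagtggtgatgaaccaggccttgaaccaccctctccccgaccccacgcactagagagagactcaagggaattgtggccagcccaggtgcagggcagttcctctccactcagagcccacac
The core reads the same on both strands. It matched once before the start of Igll1, as CCCAGGGG beginning 231 bases before it, and not in the 250 bases before the starts of Vpreb1 and Cd79a. Of 32851 promoter windows of 250 bases, 11.8% held it, so a match is a description and not a site. Only exact matches were searched, so the lack of a match does not show that an EBF1 site is absent.

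The members were 953, 12, 12 and 69 cells in the 4 libraries. The share of pass cells was 11.9% (exact binomial 95% interval 11.2 to 12.7; all intervals here cover counting error only) in WT_JAK2WT. It was 0.333% (0.172 to 0.581) in WT_JAK2V617F, 12 of 3999 pass cells (0.155% to 0.524%) in Gli1KO_JAK2WT and 1.06% (0.828 to 1.34) in Gli1KO_JAK2V617F. WT_JAK2WT thus stood above the other 3 libraries, although its pass cells were the shallowest, with a median of 4187 UMIs against 13150, 17277 and 13785. With every cell thinned to 1000 UMIs the shares were 8.16%, 0.194%, 0.150% and 0.616%. How the depletion and the sort acted in each library was not tested.

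**Figure D1:**
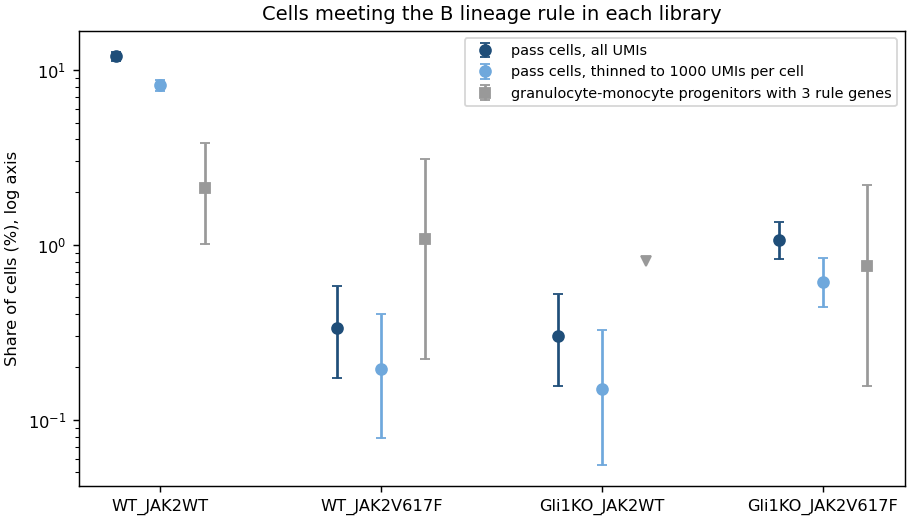
Share of cells that met the B lineage rule in each library (y axis, percent, log scale), with all UMIs and with every cell thinned to 1000 UMIs, and the share of granulocyte-monocyte progenitors with 3 rule genes. Points carry exact 95% intervals, and the triangle is the 0.813% that a count of 0 allows by the limit of 3 counts where none of 369 progenitors had 3 rule genes. WT_JAK2WT lies at 11.9%, the other libraries at 1.06% or lower.

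Elane or Mpo, genes of granulocyte-monocyte progenitors, was detected in nearly every member of these libraries. Whether free RNA from lysed cells, doublets or another source brought them was not tested. Cells of another type were used to show how often the rule is met outside B cells. In WT_JAK2WT, 16 of 771 T cells (2.08%, 1.19 to 3.35) and 10 of 476 granulocyte-monocyte progenitors (2.10%, 1.01 to 3.83) held 3 or more of the 7 transcripts, at median depths of 4953 and 19227 UMIs. The share of members there was well above both. In the other libraries, 3 of 279, 0 of 369 and 3 of 395 granulocyte-monocyte progenitors did (1.08%, 0 cells, which allows a share of up to 0.813% by the limit of 3 counts, and 0.759%). These progenitors were deeper than the members, with medians of 22552, 33942 and 26898 UMIs. The members' shares in those 3 libraries were not above this background beyond counting error.

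At the threshold of the rule in WT_JAK2WT, 500 pass cells held 2 of the 7 transcripts and 216 held 3. Cells just outside had 75.3 CPM of Ebf1 and 72.2 CPM of Cd79a, and cells just inside had 345 CPM and 772 CPM. CPM is the share of a gene in the UMIs summed over a set of cells. Ms4a1, which encodes the CD20 protein of later B cells and was not in the rule, was at 20.2 CPM in the first and 322 CPM in the second. In the 3 small libraries, members with exactly 3 of the transcripts had median depths of 28143, 21832 and 30287 UMIs, against 8156, 17874 and 7145 UMIs for all their members.

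Clustering the 953 members of WT_JAK2WT on their own gave 8 clusters. A cluster was named by the fixed stage markers, and the genes that separate clusters are a description, because the same cells were clustered. The pro-B markers included Dntt, Kit, Flt3, Erg, Lef1, Vpreb1, Igll1, Il7r and Sox4. Those of cycling pre-B cells included Mki67, Top2a, Vpreb3 and Il2ra, and those of small pre-B cells Rag1, Il2ra, Spib, Irf4 and Igkc. Immature B markers included Ms4a1, Cd93, H2-Aa, H2-Ab1, Cd74 and Ly6d, and mature B markers Ighd, Ms4a1, Cxcr5, Klf2 and Ltb. The levels of these genes in the clusters so named were partly fixed by the naming. The clusters named as pro-B-like or pre-B-like stages held 444 cells, or 46.6% of members (43.4 to 49.8). Those resembling immature or mature B cells held 269 (28.2%), and 240 (25.2%) sat in 2 clusters led by myeloid genes. Fewer than 1 cell in 2 of those the rule selected thus sat in clusters named as pro-B-like or pre-B-like. What the cells of the 2 unnamed clusters are was not tested. The clusters are taken in turn.

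**Figure D2:**
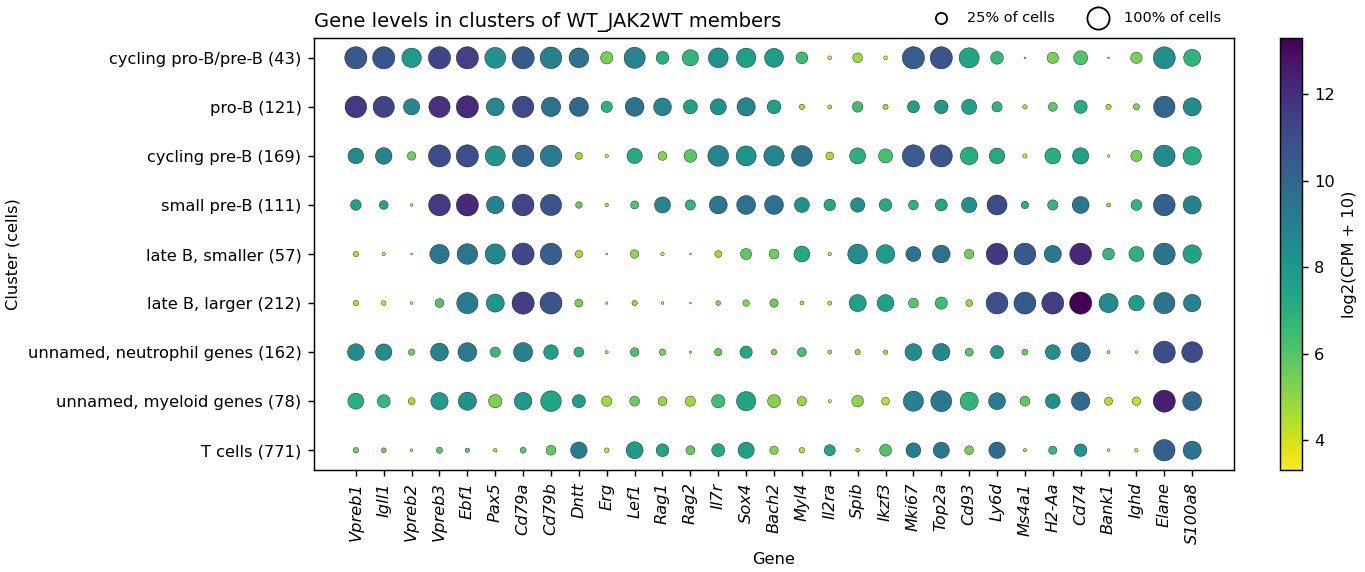
Levels of B lineage stage genes and myeloid genes (x axis) in the 8 clusters of WT_JAK2WT members and in T cells of the same library (y axis, cells in parentheses). Colour gives log2 of CPM plus 10 and dot area the share of cells with a UMI. Vpreb1, Igll1 and Dntt mark the top rows, Ms4a1 and H2-Aa the late B rows, and Elane is seen in every row.

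The pro-B-like cluster held 121 cells. Its leading genes against the other members were Arpp21 (313 CPM against 24.2), Vpreb2 (397 against 36.8), Tmem91, Rag1 (421 against 45.9), Lef1 (725 against 99.3), Dntt (967 against 138), Erg and Myl10. Lef1 and Erg encode transcription factors of early lymphoid and stem cells. The cells were small in RNA content, with a median of 2947 UMIs. Dntt was detected in 89 of 121 cells and Rag1 in 77, and 63 cells held both. Of the 9 markers used for the pro-B name, 7 were at 50 CPM or more. Kit was low at 26.4 CPM, and Flt3, which encodes a receptor of lymphoid progenitors, at 13.2 CPM. Il7r (293 CPM) and Sox4 (432 CPM), also on that list, were below their levels in the small pre-B-like cluster (665 and 738 CPM).

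A smaller cluster of 43 cells scored alike on the pro-B and the cycling pre-B markers and is called here the cycling pro-B/pre-B cluster. It had Dntt in 34 cells (753 CPM) and Mki67, a gene of dividing cells, in all 43 (1293 CPM, against 198 CPM in the pro-B-like cluster). Dntt and Mki67 were detected together in 34 cells. Its leading genes were Bfsp2, Gfra2, Dntt, Vpreb2, Socs2, a feedback inhibitor of cytokine signalling (139 CPM against 30.6), the histone gene Hist1h1a, Pimreg and Impdh1. Its cells were deep, with a median of 9398 UMIs, and a share of cells with a UMI cannot be compared with that of the shallower pro-B-like cluster.

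The cycling pre-B-like cluster held 169 cells at a median of 7422 UMIs. Myl4, a myosin light chain gene, led it (738 CPM against 53.5 in the other members), followed by Nrgn, Rsph1, Rsph9, Cenpf, Neil3, Bach2 and Tmem108. Mki67 was detected in all 169 cells (1343 CPM). Il7r, which encodes the receptor for the cytokine IL-7 that pre-B cells need to grow, was detected in 148 cells (419 CPM). Dntt was at 16.9 CPM and Rag1 at 26.3 CPM.

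The small pre-B-like cluster held 111 cells at a median of 2425 UMIs. Il2ra, which encodes CD25, the classical surface mark of pre-B cells, led it (148 CPM against 6.60), followed by Serinc5, Dnajc7 (2962 CPM against 365), Cpm, Atp1b1, Rag1 (405 against 58.2), Arl5c and Rhoh. Mki67 was detected in 21 cells (108 CPM). Rag1 had 2 high clusters, the pro-B-like at 421 CPM (363 to 485) and the small pre-B-like at 405 CPM (333 to 487). The cycling pro-B/pre-B cluster was at 120 CPM (91.1 to 155) and the cycling pre-B-like cluster at 26.3 CPM (18.9 to 35.5). The larger late B cluster was at 3.03 CPM. Rag1, Rag2 and Il2ra were among the markers for small pre-B cells, so their levels in that cluster were partly fixed by the naming. Rag2 was at 178 CPM (142 to 222) in the pro-B-like cluster and at 97.6 CPM (64.3 to 142) in the small pre-B-like. The granulocyte-monocyte progenitors held 11 Rag1 UMIs in 476 cells. The T cells of this library carried Rag1 and Dntt themselves (164 and 562 CPM), so they are no background for those genes.

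Vpreb1 was at 1457 CPM (1351 to 1568) in the cycling pro-B/pre-B cluster, 3133 (2973 to 3301) in the pro-B-like, 351 (322 to 381) in the cycling pre-B-like, 206 (156 to 267) in the small pre-B-like, 10.6 in the smaller late B and 12.1 in the larger late B cluster, against 33.6 CPM in T cells. Igll1, its partner in the surrogate light chain, was at 1575, 2417, 433, 174, 2.66 and 8.07 CPM, against 31.2 CPM in T cells. Both genes were highest in the pro-B-like cells and at or below the T cell level in the late B clusters. They were detected together in 43 of 43, 106 of 121, 67 of 169, 11 of 111, 0 of 57 and 1 of 212 cells. Vpreb2, the close copy of Vpreb1 on chromosome 16, was at 223, 397, 37.5 and 3.62 CPM in the 4 early clusters. The coding transcripts of Vpreb1 and Vpreb2 in GENCODE M21 are 96.6% identical, so reads could be split between them or lost, and the division between the pair is uncertain.

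Vpreb3, whose product is not part of the surrogate light chain of the pre-B cell receptor, was high in all 4 early clusters. It was at 2402, 3704, 2087 and 3146 CPM there, 674 in the smaller late B cluster and 56.5 (42.7 to 73.3) in the larger, which is near the 50.4 CPM of T cells. Ebf1 was at 2597, 4365, 1962 and 4560 CPM in the early clusters and at 666 and 576 CPM in the late B clusters, against 45.2 CPM in T cells. Pax5, which encodes the factor that holds cells to the B lineage, varied less, at 277, 379, 264, 463, 427 and 263 CPM. Cd79a was at 1452, 2102, 1109, 2361, 2244 and 2843 CPM.

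Small pre-B-like cells were set beside pro-B-like cells by summed counts, calling a gene 2-fold higher or lower where the higher side had at least 50 CPM and 30 counts and 10 CPM was added to both. Of 2323 genes measured at that level, 117 (5.04%) were called higher and 163 (7.02%) lower. The highest were Ly6d, a surface protein of committed lymphoid cells (104 to 2054 CPM, log2 ratio 4.18), Myl4, Fcrla, Il2ra, Dnajc7, Klf2, Samhd1 and Ms4a1. The lowest were Vpreb2 (-4.90), Dntt (967 to 39.8 CPM, -4.30), Arpp21, Tmem91, Lef1 (-3.44), Selenom, Myl10 and Bfsp2. Of 22 measured B lineage transcription factors 6 were higher, among them Ikzf3 (2.70), Bach2 (1.91), Spib (1.87) and Irf4 (1.35), which encodes a factor needed for light chain rearrangement, and 4 were lower, namely Lef1, Erg, Id3 and Bcl11a. The median of this list was 0.69, against -0.13 for all genes measured. Spib and Irf4 were also used to name small pre-B clusters, and Lef1, Erg and Sox4 to name pro-B clusters. The calls of these genes, and of Il2ra and Dntt above, were thus partly fixed by the naming. Of the pre-BCR and BCR signalling genes, 4 of 11 were higher (Fcrla, Lyn, Cd72 and Syk) and none lower. Of the S phase genes 0 of 22 were higher and 11 lower (median -1.04), and of the G2 and M phase genes none of 14 passed in either direction (median -0.40).

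The 2 dividing clusters were set side by side in the same way. Of 3025 genes, 50 (1.65%) were called higher in cycling pre-B-like than in cycling pro-B/pre-B cells and 76 (2.51%) lower. Dntt was lowest (753 to 16.9 CPM, -4.83), followed by Rnase12, Arpp21, Myl10, Vpreb2, Tcf7l2, Impdh1 and Adgrg1. Myl4 (74.5 to 738 CPM, 3.15), Nrgn, Ikzf3, Fcrla, Blk, Spib, Lmo4 and Cd38 were highest. Blk encodes a kinase of the receptor. None of 49 G2 and M phase genes passed in either direction (median -0.09, against 0.01 for all genes), and the sums of that list were 22453 and 22644 CPM. Mki67, Top2a, Cdk1, Nusap1 and Birc5 of that list were also cycling pre-B markers that named both clusters, so their likeness here was partly fixed. Dntt was likewise a pro-B marker. This pair rests on the separation of the 43-cell cluster, and 4 of the 6 clustering alternatives named no such cluster.

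The larger late B cluster held 212 cells. Its scores on the immature and the mature B markers lay within 0.2 of each other, as did those of the smaller late B cluster described next, so neither was given a single stage. In each of the 6 clustering alternatives a cluster of 134 to 206 cells was named immature B alone. Of the 8 immature B markers, 7 were at 50 CPM or more in the larger late B cluster. Cd93 was not, at 20.2 CPM against 293 CPM in small pre-B-like cells. Ms4a1 and H2-Ab1 were on both the immature and the mature list. The leading genes of the larger late B cluster were Ly6a (1187 CPM against 48.4 in the other members), Apoe (571 against 20.4), Bank1, H2-DMb2, Ltb, H2-Aa (2807 against 205), H2-Eb1 and Cd74 (10036 against 782). Ly6a encodes the surface protein Sca-1, Apoe a lipid carrier and Bank1 an adaptor of the B cell receptor. Ms4a1 was detected in 208 cells. Ighd, the heavy chain constant gene of IgD that mature B cells carry, was detected in 103 cells (210 CPM), against 3.17 CPM in T cells. The receptor genes Fcer2a and Cr2, which define most mature follicular cells, were at 11.1 CPM each, with 7 and 8 cells.

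Against small pre-B-like cells, 205 of 2207 genes (9.29%) were called higher in the larger late B cluster and 215 (9.74%) lower. All 9 measured genes of MHC class II antigen presentation were higher, with a median of 3.99 against -0.04 for all genes, from H2-Ob (1.69) to H2-DMb2 (4.74). They include Ciita, the master activator of these genes (3.62 to 87.7 CPM, 2.84). H2-Aa, H2-Ab1 and Cd74 among them were also used to name the cluster, and the others were not. Of the survival list 3 of 4 were higher, namely Bcl2 (54.2 to 244 CPM, 1.98), Mcl1 (1.21) and Bcl2a1b, and none was lower. Itgb7, Itgb1, Cd9, Cxcr5 and S1pr1, which serve adhesion and exit from the marrow, were among 7 of 16 surface genes that were higher, and Cd93 (-3.33) and Cxcr4 (264 to 67.6 CPM, -1.82), the receptor that holds cells in the marrow, were the 2 lower. Il7r (665 to 21.2 CPM, -4.44) and Rag1 (-4.99), a marker used to name small pre-B clusters, were lower. Of 20 transcription factors 10 were lower, among them Sox4 (-4.45), Bach2 (-4.02), Myb (-3.17) and Foxo1 (-1.75), and 3 were higher, namely Pou2f2 (1.93), Myc (1.07) and Bcl11a (1.05).

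The smaller late B cluster held 57 cells led by Tnfrsf13c, which encodes the receptor for the survival factor BAFF (512 CPM against 51.5), Ms4a1, Nfkbid, Ly6d, Arhgap24, Ifi27l2a, Cd72 and Myo1e. Scrublet, a doublet scorer, placed 25 of the 57 (43.9%) among its highest scores, against 21 of 212 (9.91%) in the larger cluster, and the part of doublets in its profile was not tested. Compared with it, the larger cluster had 164 of 2594 genes (6.32%) called higher and 248 (9.56%) lower. Of the G2 and M phase genes 31 of 33 were lower, including Mki67 (746 to 52.4 CPM) and Top2a (743 to 76.7 CPM), and of the S phase genes 17 of 20. Mki67 was detected in 26 of the 57 cells. All 9 MHC class II genes were higher in the larger cluster (median 1.65), and Apoe (21.2 to 571 CPM, 4.22), S100a6, March1, Retnlg, Gimap3, Nid1, Itgb7 and Zcwpw1 led the list. Retnlg is a neutrophil gene, and its 119 UMIs in the larger cluster came from 2 of 212 cells. The neutrophil markers summed to 1073 CPM in the larger and 335 CPM in the smaller cluster, and their part in the difference was not tested.

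**Figure D3:**
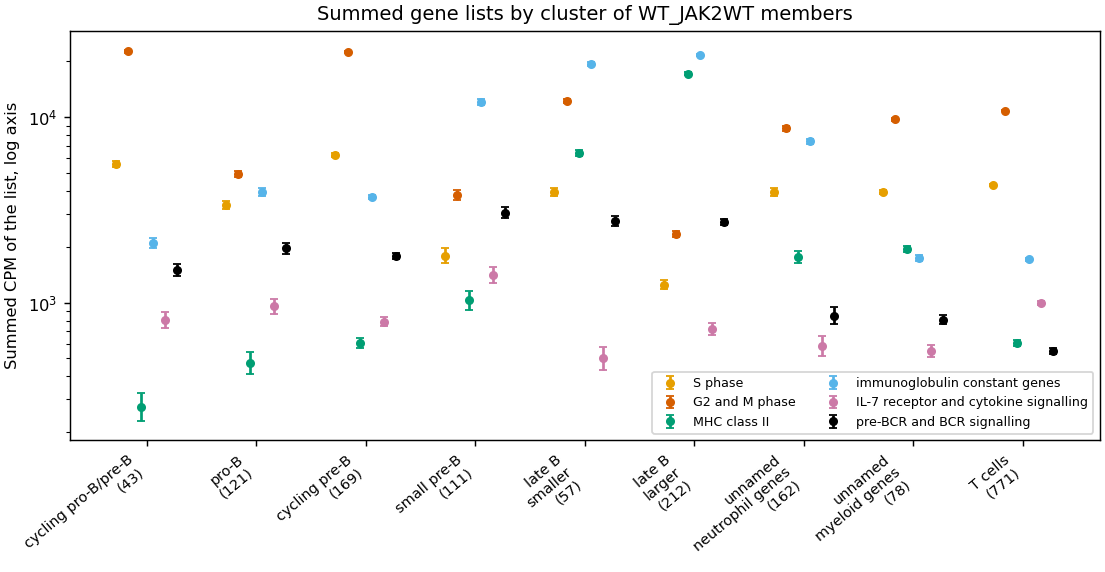
Summed CPM of 6 gene lists (y axis, log scale) in the clusters of WT_JAK2WT members and in T cells (x axis, cells in parentheses), with exact Poisson 95% intervals. G2 and M phase genes reach 22453 and 22644 CPM in the 2 cycling clusters, MHC class II genes 17159 CPM in the larger late B cluster, and immunoglobulin constant genes 12103 to 21603 CPM in small pre-B-like and late B cells.

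Proliferation was read from these sums and not from a count of detected genes. At least 3 genes of the G2 and M list were detected in 98.4% of members, because common genes of the list are found in nearly every cell, so that criterion did not separate cells. The sum was 22644 and 22453 CPM in the 2 cycling clusters, 12214 in the smaller late B, 4942 in the pro-B-like, 3808 in the small pre-B-like and 2346 in the larger late B cluster. T cells of the same library were at 10814 CPM. Some genes of the list, such as Mki67 and Top2a, also named the cycling clusters, so their place in this order was partly fixed. The sum for the IL-7 receptor and cytokine list was highest in small pre-B-like cells (1403 CPM, 1267 to 1550), followed by pro-B-like cells (956, 868 to 1051). The interval of pro-B-like cells overlapped that of the cycling pro-B/pre-B cluster (809, 731 to 893), and the latter overlapped those of the cycling pre-B-like (786) and larger late B (722) clusters.

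The 2 unnamed clusters had medians of 4 and 3 of the 7 rule genes per cell, against 4 to 7 in the named clusters. Vpreb1 and Igll1 were detected together in 53 of 162 and 18 of 78 of their cells, and neither gene in 36 and 30. One, of 162 cells, was led by Retnlg, S100a9 (1692 CPM against 205), Ccl5, Prg2, Lcn2, S100a8, Camp and Jchain, most of them genes of granulocytes. Retnlg was detected in 6 and Lcn2 in 7 of these cells, whereas S100a9 was detected in 110. The other, of 78 cells at a median of 19078 UMIs, was led by Elane (5646 CPM against 735), Prtn3, Ms4a3, Ctsg, Ly6c2, Nkg7, Runx2 and Clec12a, genes of granulocyte-monocyte progenitors and other myeloid cells. The 5 granulocyte-monocyte progenitor markers summed to 7693 and 16776 CPM in them, against 1055 to 4227 CPM in the named clusters and 3560 CPM in T cells, and Scrublet marked 19 and 26 of their cells. Whether they are doublets, free RNA or cells of their own kind was not tested.

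Light chain genes were left out of the clustering, so they can be read against it. Igkc, the kappa constant gene, was detected in 99.4% of T cells with a median of 5 UMIs per cell. The median was 6 in the cycling pro-B/pre-B cluster, 7 in the pro-B-like, 12 in the cycling pre-B-like, 12 in the small pre-B-like, 47 in the smaller late B and 36 in the larger late B cluster. Pro-B-like and T cells had means of 6.91 and 6.42 UMIs per cell, at median depths of 2947 and 4953 UMIs. Small pre-B-like cells had a mean of 15.2 UMIs at a lower depth, or 6086 CPM against 1842 CPM in pro-B-like cells and 923 CPM in T cells. Igkc was one of the markers used to name small pre-B and immature B clusters, but the lambda genes were used for no name.

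The 3 lambda constant genes Iglc1, Iglc2 and Iglc3 had a median of 1 UMI per cell in pro-B-like cells, 2 in small pre-B-like and 20 in larger late B cells, against 1 in T cells. Lambda UMIs outnumbered kappa UMIs in 3 of 121 pro-B-like cells, 0 of 169 cycling pre-B-like cells, 10 of 111 small pre-B-like cells (9.01%, 4.41 to 15.9), 10 of 57 smaller late B cells and 51 of 212 larger late B cells (24.1%, 18.5 to 30.4), against 31 of 771 T cells (4.02%, 2.75 to 5.66). Over both late clusters the 61 lambda-led cells had medians of 50 lambda and 9 kappa UMIs. The other 208 had medians of 48 kappa and 15 lambda UMIs. Lambda transcripts were therefore not confined to lambda-led cells: 156 of those 208 (75.0%) held at least 10 lambda UMIs, against 5 of 740 kappa-led T cells (0.676%). Scrublet marked 22 of the 156. The 3 lambda genes are near copies, so the division of reads among them is uncertain, and 1 cell held 909 of the 9194 late lambda UMIs.

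**Figure D4:**
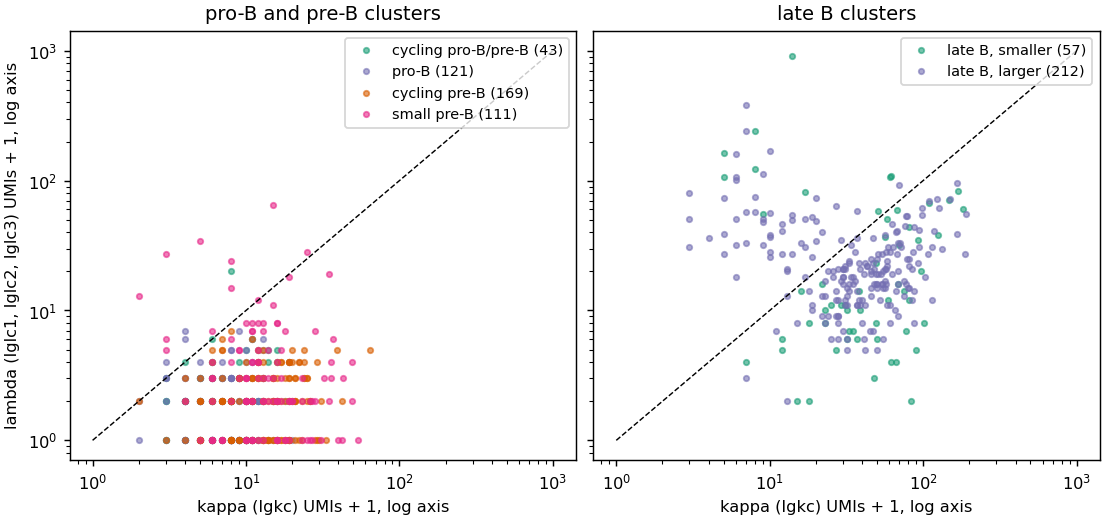
Kappa (x axis) and lambda (y axis) UMIs plus 1 per cell on log scales, for the 444 pro-B-like and pre-B-like cells (left) and the 269 late B cells (right); the dashed line marks equal counts. Late B cells below the line carry a median of 15 lambda UMIs and cells above it a median of 9 kappa UMIs.

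Across libraries the stages can only be read by detection. Dntt was detected in 238 of 953 WT_JAK2WT members (22.3% to 27.8%), in 2 of 12 and 3 of 12 members, and in 15.9% (8.24 to 26.7) of those of Gli1KO_JAK2V617F. Igll1 or Vpreb1 without Dntt was found in 33.2%, 7 of 12, 5 of 12 and 34.8%. Ighd without any of these or Rag genes was found in 12.6% of WT_JAK2WT and 20.3% (11.6 to 31.7) of Gli1KO_JAK2V617F members. The intervals of these 2 libraries overlapped for each of these gates, and depth was not matched (median 3973 and 7145 UMIs).

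Members of Gli1KO_JAK2V617F and WT_JAK2WT were set side by side, since only these libraries held 50 or more. Of 3421 genes, 95 (2.78%) were called higher in Gli1KO_JAK2V617F and 116 (3.39%) lower. The highest were Tpm3-rs7 (3.48 to 143 CPM, 3.50), Ifitm1, an interferon-induced gene of progenitors (39.6 to 453 CPM, 3.22), Ctla2a, Rab38, Cpa3, Adgrl4, Car2 and Tmem176b. Each of these 8 was also higher outside the members, with log2 ratios of 3.52 for Tpm3-rs7 and 3.60 for Ifitm1 between the other pass cells of the same libraries. The lowest were Ahnak (-3.44), Jchain (-2.73), Zbtb20 (205 to 23.9 CPM, -2.66), Ifi27l2a, Cox6a2, Ly6a (236 to 35.4 CPM, -2.43), S100a6 and S100a8. Between the other pass cells, S100a6 and S100a8 went the other way (0.78 and 0.83), and the other 6 were lower too, from -0.47 for Ly6a to -2.88 for Cox6a2. Jchain is limited by the rule, and its level outside the members differed between the libraries, with 3863 CPM and 612 CPM in the other pass cells.

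Of the 7 immunoglobulin constant genes measured in this pair 5 were lower in Gli1KO_JAK2V617F members, including Iglc2 (836 to 123 CPM, -2.67) and Ighm (2232 to 874 CPM, -1.34), and none was higher. Of 22 B lineage transcription factors 6 were lower, with a median of -0.75 against 0.09 for all genes. Of 10 glycolysis genes 6 were higher, among them Ldha (293 to 802 CPM, 1.42). None of 6 JAK-STAT target genes passed in either direction. The members with exactly 3 rule genes held 48.4% of the UMIs of Gli1KO_JAK2V617F members and 21.6% of those of WT_JAK2WT. With at least 4 rule genes, an alternative chosen after seeing the data, 54 and 737 cells remained and 36 genes were called higher and 66 lower. Of the 38 list genes called, 11 stayed past 2-fold. Among them were Igha (199 to 22.3 CPM, -2.70), Iglc2 (-1.78), Rag1 (-1.73), Iglc1 (-1.53), Tcf4 (-1.38), Syk (-1.18) and Ldha (1.13). Ighm was then at -0.53 and Cd79a at -0.24. The immunoglobulin constant genes were not compared between the other pass cells of these libraries. Whether their difference is particular to the members was therefore not tested.

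GFP, the marker of the retroviral vector, was detected in 2 of 953 WT_JAK2WT members (0.210%, 0.0254 to 0.756) and in 0 of 12, 0 of 12 and 0 of 69 of the others. A count of 0 of 69 allows a share of up to 4.35% by the limit of 3 counts. Other pass cells had GFP in 0.611%, 2.73%, 0.176% and 1.03%, so the interval for WT_JAK2WT members includes the share in other cells, and a difference was not detectable at this depth. The sorted populations with and without GFP were not separated in the matrices used here.

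Transcripts of the sex chromosomes bear on the source of the cells, since the recipients were female. Xist was detected in 889 of 953 and 11 of 12 members of the wild type libraries, and no Y-linked UMI was found among them, so donor and recipient cells cannot be told apart there. In the Gli1 knockout libraries Xist was detected in 0 of 12 and 0 of 69 members, and UMIs of Ddx3y, Eif2s3y, Kdm5d or Uty in 7 of 12 and 50 of 69 (72.5%, 60.4 to 82.5), against 69.7% and 72.0% of the other pass cells. Cells of the same libraries with 3 or more Xist UMIs had Y-linked UMIs in 9 of 93 and 11 of 43. The libraries therefore differed in these transcripts along with the donor genotype, and the sex of the donors cannot be told apart from the genotype.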

How the data were processed

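Cells were profiled with the 10x Single Cell 3' v3.1 chemistry, per the labels' protocols. The deposited values are raw UMI counts per gene and called barcode. Cell Ranger 4.0.0, Seurat 4.0.4 and mm10 are named without roles, per the submitters' processing notes. The 4 hashing libraries were not used here, so single mice could not be told apart. The libraries held 72458173, 59165347, 84063880 and 114847114 UMIs and shared 11 to 33 barcodes pairwise, 1 of them a member in 2 libraries. Members and gene lists were chosen with earlier results of these data known.

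T cells (at least 2 Cd3e UMIs, with Cd3d or Cd3g) and granulocyte-monocyte progenitors (5 marker genes at 3% or more of UMIs), all below 5 Jchain UMIs, gave the background. Detection of 3 markers, planned for this, was met by nearly all cells and was not used. Members of WT_JAK2WT were clustered with scanpy 1.11.5 and igraph 0.11.9 under Python 3.11.15: 10000 counts per cell, log scale, 1500 variable genes without immunoglobulin, T cell receptor, sex-linked and mitochondrial genes, 20 components, 15 neighbours, Leiden resolution 0.6. A name was the class with the highest mean log2 ratio of its markers, joined by B stages within 0.2, with 3 markers at 50 CPM; a non-B class left the cluster unnamed. Named genes were the 8 highest per cluster (at least 100 CPM and 30 counts), the 8 highest and lowest of a library pair, and list genes. The pairs of clusters, named by the same rule, were chosen after the clusters were seen. Ribosomal, predicted and immunoglobulin segment genes were not eligible as leading genes. Doublets were kept; Scrublet's highest 0.8% per 1000 barcodes were removed as an alternative. The calls by size were tested on simulated data. Other alternatives were limits on depth, mitochondrial share and rule genes, thinning, and clustering settings.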

Additional observations from a re-analysis of the deposited data

Results flagged for a closer look

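The share of members under JAK2V617F relative to JAK2WT differed between the donor genotypes. The ratio was 0.0279 (95% interval 0.0158 to 0.0493) in wild type marrow, from 11.9% to 0.333%. It was 3.54 (1.92 to 6.53) in Gli1 knockout marrow, from 12 of 3999 to 69 of 6490 pass cells. With every cell thinned to 1000 UMIs the ratios were 0.0238 and 4.11. They were 0.0916 and 1.13 with at least 2 rule genes, 0.0211 and 8.32 with at least 4, 0.0385 and 10.2 with Jchain below 2 UMIs, and 0.0125 and 4.61 with every cell thinned to 2000 UMIs. The size of the ratio in Gli1 knockout marrow thus depended on the rule. What drew attention is that the 2 ratios lie on opposite sides of 1 under the rule used. The Jchain limit of that rule left out 174, 13, 103 and 45 cells with at least 3 rule genes in the 4 libraries. In Gli1KO_JAK2WT these were more than the 12 cells kept. The ratios without a Jchain limit were not computed, so their side of 1 is not known. With 1 library per group the difference was not tested, the intervals cover counting error only, and 3 of the 4 shares lie near the level at which granulocyte-monocyte progenitors met the rule.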

How the results depend on the processing

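The share of members was highest in WT_JAK2WT under each of the 8 alternatives run. There it was 13.9% with at least 2000 UMIs, 18.2% and 9.23% with at least 2 and 4 rule genes, 7.94% with Jchain below 2 UMIs and 8.16% thinned to 1000 UMIs. In WT_JAK2V617F it was 1.67% with at least 2 rule genes and 0.149% thinned to 2000 UMIs. In Gli1KO_JAK2WT it was 3.95% and 0.100% with at least 2 and 4 rule genes, 0.100% with Jchain below 2 UMIs and 0.150% thinned to 1000 UMIs. In Gli1KO_JAK2V617F it was 4.48% with at least 2 rule genes and 0.616% thinned to 1000 UMIs. Among WT_JAK2WT members, the 5 planned clustering alternatives gave shares of early, late and other clusters within the counting intervals. At least 4 rule genes, chosen after seeing the data, gave 57.4% in pro-B-like and pre-B-like clusters and 16.3% in clusters not named as B stages. At resolution 0.3 no cluster was named small pre-B. No cluster scored alike on pro-B and cycling pre-B markers at resolution 0.3, with 10 components, without cell cycle genes or without the highest Scrublet scores. One of 43 cells did at resolution 1.0 and one of 126 cells with at least 4 rule genes. A cluster named immature B alone was found under each of the 6 alternatives (134 to 206 cells). Genes called 2-fold higher and lower between Gli1KO_JAK2V617F and WT_JAK2WT members were 95 and 116; with 50 CPM added they were 22 and 33, with at least 4 rule genes 36 and 66, and with a limit of 20 CPM 185 were lower. The causes were not tested, except that thinning and stricter limits leave fewer cells or genes to pass. No paired analysis was possible because each group is 1 library. Depth limits what can be said of the 12 members of each of 2 libraries. The wide detection of genes such as Elane and Igkc limits any share of cells with a UMI.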
